A study of Mus musculus with 2 samples.

Results

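Cadherins are calcium-dependent adhesion proteins that hold cells together, and the superfamily also holds protocadherins and the giant Fat, Dachsous and Celsr proteins. The 43 genes described here are cadherin superfamily genes outside the clustered protocadherins, chosen by name and matched by their Ensembl identifiers. Each had a locus, so they made 43 of the 34624 loci of the series. The list is not complete, and 18 further measured superfamily loci outside the clustered protocadherins are described at the end. Where genes overlap, the authors' loci can hold more than 1 of them. Embryos from CBA/Ca×C57Bl/10 crosses were taken whole at embryonic day 10.5, without treatment, and their total RNA was sequenced. The series held 1 group with 2 replicates, each of which may be a single embryo or a pool, as the labels leave this out. There is thus no comparison between conditions, and the questions open to these data are how high each gene stood, in what order, and how far the replicates differed.

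Classical cadherins bind the same or related cadherins on the next cell through their outer repeats and bind catenins inside the cell, which link them to actin. Type I and type II classical cadherins differ in how their outermost repeat docks, and tissues of the embryo are known to carry different sets of them. Protocadherins lack the classical catenin-binding tail, Fat and Dachsous proteins bind each other across cell borders in growth control and planar polarity, and Celsr proteins belong to the core planar polarity system. In RNA of whole embryos, fewer cells of a type and less RNA per cell cannot be told apart.

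Replicate 1 held 18318181 counted reads and replicate 2 held 117522171, or 6.42 times as many, which makes replicate 1 the noisier at low levels. The 43 loci held 78883 reads (0.431% of the total) in replicate 1 and 349881 (0.298%) in replicate 2, from 5 and 8 reads for Cdh17 to 16540 and 72654 for Fat1. All 24 markers of 8 embryonic tissues (neural tissue, primitive blood, heart, somite and muscle, limb bud, endothelium, epithelium and liver primordium) reached 1 RPKM (reads divided by transcript length and library size) in both replicates. Of 6 trophoblast and decidual markers, 2 did. The 4 trophoblast markers summed to 5.40 RPKM in replicate 1 and 3.89 in replicate 2, with Tpbpa and Psg21 at 0 reads, and the 2 decidual markers summed to 1.44 and 6.40. Of the 43 loci, 34 held the gene alone and 9 were joined with other identifiers: Cdh4, Cdh8, Pcdh15, Pcdh19, Fat1, Fat4, Dchs1, Celsr3 and Dsg2. The 1 locus joined with another protein-coding gene was that of Dsg2, which also held Ttr, the gene of the thyroid hormone carrier transthyretin that liver and yolk sac make in large amounts. Values of that locus cannot be read as Dsg2, or as Ttr alone. Ttr is 1 of the 24 tissue markers counted above, so it passed through this joined locus. The joined partners of Cdh8 and Fat4 are annotated as antisense genes, and strand use in counting is not given in the sources used here.

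Detection was common in the chosen list. Of the 43 genes, 36 (83.7%) reached 1 RPKM in both replicates, where 49.4% of all loci and 65.1% of protein-coding loci did. None of the 43 had 0 reads in either replicate. The 7 others of the 43 were Cdh22, Cdh9, Fat2, Cdh23, Cdh26, Cdh16 and Cdh17. Of the 18 measured superfamily loci outside the list, only 7 reached 1 RPKM in both replicates. The high share is thus one of the list and not of the whole superfamily. Just above the minimum lay Cdh20 (2.58 and 1.08 RPKM, in replicate 1 and then replicate 2, as in all pairs of values that follow) and Cdh12 (1.97 and 1.74). Just below it lay Cdh22 (1.24 and 0.998) and Cdh9 (0.955 and 1.11). Levels were not high for the list as a whole: the median of the 43 loci was 7.41 and 5.22 RPKM, against 8.38 and 5.52 over protein-coding loci and 1.76 and 1.00 over all loci. The 43 genes spanned a wide range instead, from 163 and 186 for Cdh11 to 0.160 and 0.0389 for Cdh17. The 7 highest loci (Cdh11, Cdh2, Pcdh18, Fat1, the joined Dsg2 locus, Fat4 and Fat3) held 67.1% and 70.2% of the RPKM summed over the 43.

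**Figure D1:**
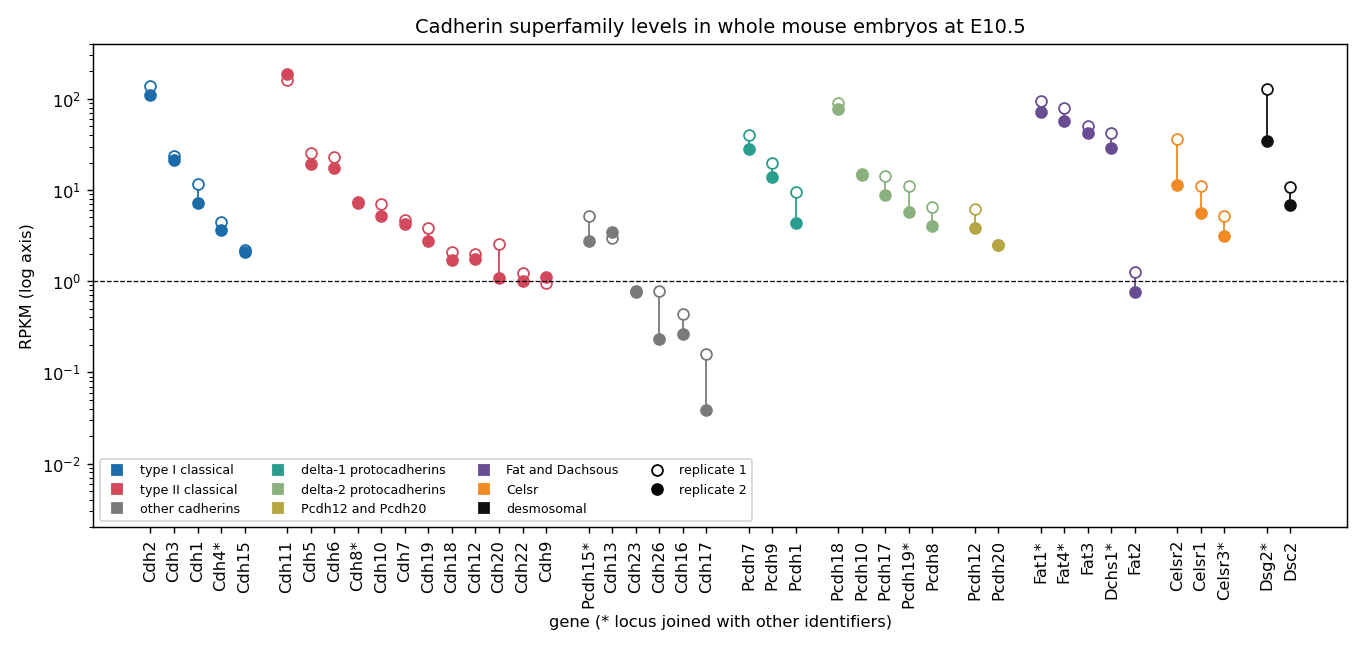
RPKM (log axis) of the 43 genes, grouped by class and ordered by mean within a class; open circles are replicate 1, filled circles replicate 2, the dashed line marks 1 RPKM, and an asterisk marks a joined locus. Cdh2, Cdh11, Pcdh18 and Fat1 stand at the top of their classes by mean, and the widest gaps between replicates at middle or high level are those of Celsr2 and the Dsg2 locus.

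Upstream sequences of 4 genes are shown, 3 of them from a run of neighbours that stood at very different levels and 1 from the high end of the list. The type II genes Cdh6, Cdh9, Cdh10, Cdh12 and Cdh18 follow each other in this order on chromosome 15 with 1 other protein-coding gene, Acot10, among them, before Cdh18. Cdh6 stood at 22.9 and 17.3 RPKM, its direct neighbour Cdh9 at 0.955 and 1.11, Cdh10 at 7.04 and 5.22, Cdh12 at 1.97 and 1.74 and Cdh18 at 2.10 and 1.73. The order along the chromosome was thus not the order of the levels. Each sequence is the 250 bases before the start in the RefSeq promoter table (build GRCm38.p6, not the build the authors used), 5′ to 3′ on the strand of the gene, with CpG dinucleotides in capitals. Cdh6 (chr15:13173676-13173925, minus strand) has 6 of them, Cdh10 (chr15:18820079-18820328, plus strand) 2 and Cdh18 (chr15:23036213-23036462, plus strand) 8. Pcdh18 (chr3:49757317-49757566, minus strand), the highest by mean RPKM of the genes with a sequence in the table, has 23. The windows of Cdh6 and Cdh10 lie outside annotated exons, while 8 bases of that of Cdh18 and 9 of that of Pcdh18 lie within one. In windows of 300 bases that reach 50 past the start, Cdh9, not shown, had 8 CpG dinucleotides, as many as Cdh6, and Pcdh10, a near neighbour of Pcdh18, had 24 against 23.
Cdh6: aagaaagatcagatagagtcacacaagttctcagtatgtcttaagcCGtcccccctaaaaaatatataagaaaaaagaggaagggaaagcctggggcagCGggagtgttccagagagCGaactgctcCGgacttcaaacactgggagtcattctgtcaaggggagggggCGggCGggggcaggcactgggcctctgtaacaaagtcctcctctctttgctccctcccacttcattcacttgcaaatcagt
Cdh10: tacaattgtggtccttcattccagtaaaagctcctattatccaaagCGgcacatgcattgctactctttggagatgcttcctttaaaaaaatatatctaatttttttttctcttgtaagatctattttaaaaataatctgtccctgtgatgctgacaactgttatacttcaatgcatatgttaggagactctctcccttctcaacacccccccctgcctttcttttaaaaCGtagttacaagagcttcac
Cdh18: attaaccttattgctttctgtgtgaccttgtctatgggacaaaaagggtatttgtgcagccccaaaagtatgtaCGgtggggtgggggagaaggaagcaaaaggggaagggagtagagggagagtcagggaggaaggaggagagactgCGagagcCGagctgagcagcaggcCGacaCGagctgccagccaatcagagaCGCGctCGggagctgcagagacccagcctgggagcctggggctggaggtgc
Pcdh18: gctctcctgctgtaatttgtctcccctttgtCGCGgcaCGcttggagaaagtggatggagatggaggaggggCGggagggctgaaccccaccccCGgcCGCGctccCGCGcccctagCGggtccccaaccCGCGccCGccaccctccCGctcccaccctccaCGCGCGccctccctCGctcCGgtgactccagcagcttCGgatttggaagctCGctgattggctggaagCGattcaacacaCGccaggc

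The table held 30 windows of 300 bases (250 before and 50 after the start) for 27 of the 43 genes. It had none for Cdh1, Cdh2, Cdh3, Cdh4, Cdh5, Cdh11, Cdh13, Cdh16, Cdh17, Cdh19, Pcdh1, Pcdh12, Celsr1, Dchs1, Dsc2 and Dsg2. The median was 13.5 CpG dinucleotides a window, against 7 over all 32851 windows of the table. At least 15 were found for 12 of the 27 genes, in 14 of the 30 windows, where 34.6% of all windows had as many. Celsr2 had 40, Cdh22 38 and Fat3 35, while Fat1 and Cdh10 had 2 each. Across the 27 genes, Spearman's rho between the highest CpG count and mean RPKM was 0.348, a description over genes that share both libraries: Fat1 paired few CpG dinucleotides with a high level and Cdh22 many with a low one. A GC box, an E-box and a TATA motif were searched on both strands. The GC box GGGCGG occurred for 9 of the 27 genes, in 9 of the 30 windows (35.7% of all windows), among them Pcdh18 and Cdh6. The E-box CAGGTG occurred for 5, which were Cdh7, Celsr2, Fat1, Pcdh15 and Pcdh7, in 7 of the 30 windows (20.2% of all windows). The TATA motif TATAAA occurred for 2, Pcdh8 and Pcdh15, in 2 of the 30 windows (13.6% of all windows). None of the motifs contains another, and a match is a description of the letters in a window.

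Type I classical cadherins were all detected, 5 of 5, and 1 of them dominated. Cdh2, the N-cadherin of neural tube, heart and somites, stood at 139 and 109 RPKM from 5504 and 23902 reads. Cdh3, P-cadherin of epithelia, stood at 23.6 and 21.1, and Cdh1, E-cadherin of epithelia, at 11.8 and 7.12. Cdh3 was thus above Cdh1 in both replicates, although the epithelial marker Epcam stood at 15.7 and 22.5, and the keratins Krt8 and Krt18 at 14.3 and 9.94 and at 53.4 and 31.9. Cdh4, the R-cadherin known from retina, stood at 4.45 and 3.62, and Cdh15, the M-cadherin of muscle cells, at 2.21 and 2.10. Cdh3 and Cdh1 lie close on chromosome 8 with 1 other protein-coding gene model, Gm10073, between them. The lower value of Cdh3 was above the higher value of Cdh1.

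To set differences between genes against the error, 31 pairs of genes were compared on the log2(RPKM + 1) scale. A difference counted as beyond the spread if its sign was the same in both replicates and its mean passed 2 SD of the log2 ratio that loci of like level had between replicates. An exact two-sided test over 2 replicates could reach 0.33 at best, so no p is given. Of the 31 pairs, 21 were beyond the spread and 10 within it. Among type I genes, Cdh2 exceeded Cdh4 by 4.63 ± 0.08 (SD, n = 2) and Cdh15 by 5.30 ± 0.21. Cdh1 was below Cdh3 by a difference of -1.19 ± 0.36, close to its limit of 1.06, and in replicate 1 alone (-0.94) it was within it. Neighbours in the ranking of all 43 genes were never beyond the spread (0 of 42 steps), while 609 of all 903 possible pairs were. Ranking places genes of nearest level side by side, which keeps these steps small. The 0 of 42 therefore cannot show whether the ranking is graded.

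**Figure D2:**
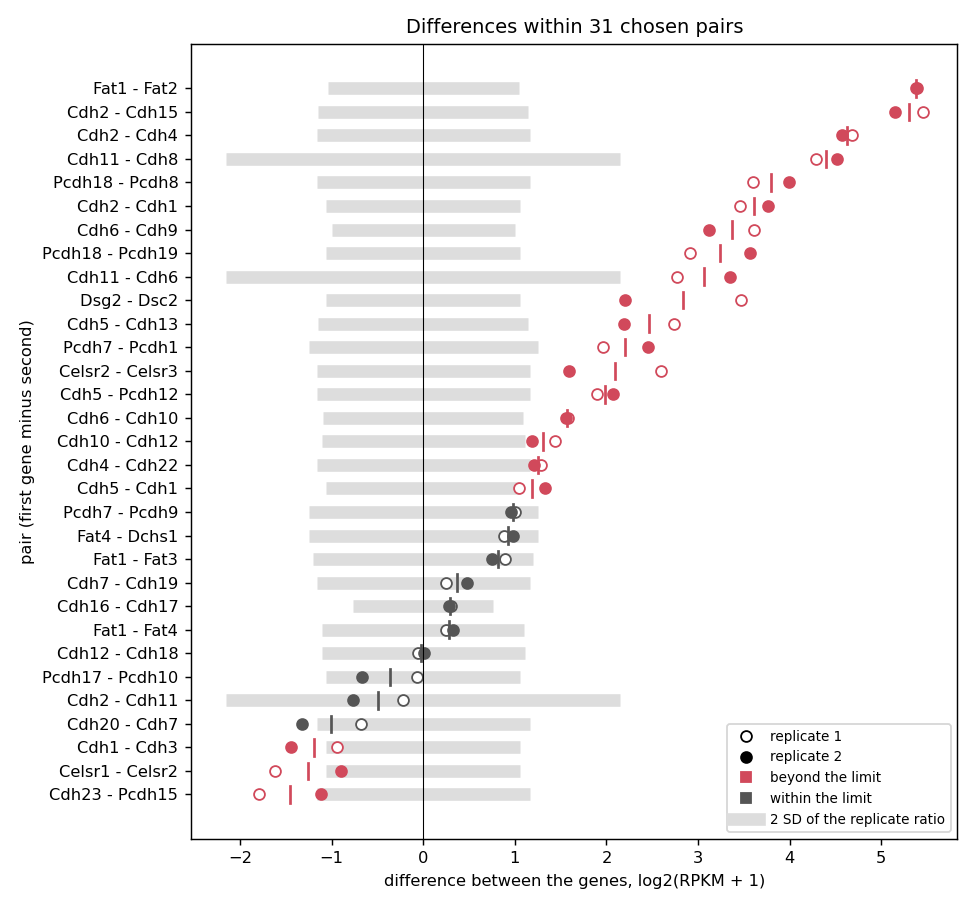
Difference in log2(RPKM + 1) between the first and the second gene of 31 pairs; open circles are replicate 1, filled circles replicate 2, the tick is their mean, and grey bars are 2 SD of the log2 ratio between replicates at that level. The 21 pairs in red lie beyond the bar and the 10 in grey within it; the bars of the 3 pairs with Cdh11 are wider, 2.15.

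Type II classical cadherins were detected for 10 of 12 genes, and Cdh11 stood far above the rest. Cdh11, the OB-cadherin of loose mesenchyme, was the highest of the 43 genes at 163 and 186 RPKM (6457 and 41890 reads), above 95.8% of protein-coding loci. Its difference from Cdh2 was within the spread (Cdh2 minus Cdh11, -0.49 ± 0.38). Cdh5, the VE-cadherin of endothelium, stood at 25.4 and 19.3, and Cdh6, known from early neural and kidney epithelium, at 22.9 and 17.3. Cdh11 exceeded Cdh6 by 3.06 ± 0.41 and Cdh8 by 4.40 ± 0.17, beyond limits of 2.15. Cdh11 lies between Cdh8 and Cdh5 on chromosome 8 with no other protein-coding gene among them, and both neighbours were far lower.

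Most of the other 9 type II genes among the 43 are known from the nervous system, and all 9 stood below 10 RPKM in both replicates. Cdh8 was at 7.41 and 7.13 RPKM (joined), Cdh10 at 7.04 and 5.22, and Cdh7, known from migrating neural crest, at 4.75 and 4.20. Cdh19, a gene of Schwann cell precursors that adjoins Cdh7, was at 3.83 and 2.74, and the pair was within the spread (Cdh7 minus Cdh19, 0.36 ± 0.16). Cdh6 exceeded Cdh10 by 1.57 ± 0.01 and Cdh9 by 3.36 ± 0.35, both beyond the spread. Cdh10 exceeded Cdh12 by 1.31 ± 0.18, beyond the spread with a pseudocount of 1 but not with 0.1 or 0.01, and Cdh12 against Cdh18 was within it (-0.03 ± 0.05). Cdh20 against Cdh7 was within it too (-1.004 ± 0.45), although the difference in replicate 2 alone, -1.32, passed the limit of 1.16. Cdh22, at 1.24 and 0.998, was below Cdh4 by 1.25 ± 0.05, a call that also needs the pseudocount of 1.

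Cadherins with other tails or of specialised cells had the lowest share of genes detected, 2 of 6, and the lowest median, 0.782 and 0.510 RPKM. Cdh13, the T-cadherin that is held in the membrane by a lipid anchor, was at 2.96 and 3.44 RPKM, and Pcdh15 at 5.16 and 2.79 in a joined locus. Pcdh15 and Cdh23 form the tip link of sensory hair cells in the inner ear, and Cdh23 stood at 0.779 and 0.756 from 43 and 124 reads. Cdh23 minus Pcdh15 was -1.45 ± 0.48, beyond the limit of 1.16, but not in replicate 2 alone (-1.11) or with a pseudocount of 0.1 or 0.01. Cdh16, of kidney epithelium, was at 0.432 and 0.264 (15 and 54 reads) and Cdh17, of intestine, at 0.160 and 0.0389 (5 and 8 reads). Cdh26 was at 0.785 and 0.234 from 26 and 44 reads. Cdh16 and Cdh17 were within the spread of each other (0.29 ± 0.01).

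The 3 genes of tip link partners that passed 1 RPKM in both replicates, of 5, were Myo7a (10.7 and 4.12), Cib2 (4.49 and 2.89) and Ush1c (2.01 and 1.48). Ush1g (0 and 0.0163) and Lhfpl5 (0.194 and 0.218) did not. Myo7a, a myosin of hair cell bundles, was the highest of the 5 and Ush1g the lowest.

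Cdh5, Pcdh12 and Cdh13 are all known from endothelium. Cdh5 exceeded Pcdh12, a protocadherin of endothelial cells and trophoblast, by 1.98 ± 0.12, beyond the spread, with Pcdh12 at 6.13 and 3.86 RPKM. Cdh5 exceeded Cdh13 by 2.47 ± 0.38 and Cdh1 by 1.19 ± 0.20, both beyond the spread, though the difference from Cdh1 in replicate 1 alone (1.05) was just within the limit of 1.06. The endothelial markers Pecam1, Kdr and Tek stood at 36.2 and 24.6, 28.8 and 27.2, and 21.9 and 17.5, so Cdh5 was in their range in both replicates.

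Delta protocadherins, the nonclustered group known mainly from brain and from mesoderm, were detected for all 8 genes, 3 of delta-1 and 5 of delta-2. Pcdh18, a delta-2 member, stood at 89.5 and 78.4 RPKM (4734 and 23562 reads), the third highest of the 43 genes by mean RPKM, though below the Dsg2 locus and Fat1 in replicate 1. Pcdh10 was at 14.8 and 14.6, Pcdh17 at 14.1 and 8.88, Pcdh19 at 11.0 and 5.68 (joined) and Pcdh8, of the presomitic and somite mesoderm, at 6.45 and 3.99. Pcdh18 exceeded Pcdh19 by 3.24 ± 0.47 and Pcdh8 by 3.80 ± 0.28, both beyond the spread. Pcdh17 and Pcdh10 were within it (-0.36 ± 0.42). Pcdh10 and Pcdh18 lie close on chromosome 3 with 1 protein-coding gene, Pabpc4l, between them.

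In the delta-1 group Pcdh7 led at 40.3 and 28.2 RPKM, followed by Pcdh9 at 19.6 and 13.96 and Pcdh1 at 9.63 and 4.31. Pcdh7 exceeded Pcdh1 by 2.21 ± 0.35, beyond the spread, and Pcdh9 by 0.98 ± 0.03, within it. Pcdh20, outside both groups, stood at 2.52 and 2.48. On chromosome 14 Pcdh20 adjoins Pcdh9, and the latter stood above it in both replicates.

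Fat and Dachsous genes were high as a class, with 4 of 5 detected and a median of 50.2 and 42.5 RPKM. Fat1, a giant cadherin that acts on actin and cell polarity, stood at 93.8 and 72.2 (joined). Fat4 stood at 78.7 and 57.5 and its binding partner Dchs1 at 42.4 and 28.8, both joined. Fat3, known from neurons, stood at 50.2 and 42.5 in a locus of its own. Fat2, known from cerebellar granule cells and skin, was at 1.27 and 0.767. Fat1 exceeded Fat2 by 5.38 ± 0.01, the largest mean difference among the 31 pairs as deposited. In replicate 1 alone, Cdh2 minus Cdh15 was larger (5.45 against 5.39). Fat1 against Fat4 (0.29 ± 0.05), Fat1 against Fat3 (0.82 ± 0.10) and Fat4 against Dchs1 (0.93 ± 0.07) were within the spread. The long transcripts gave these genes many reads, 14051 and 59442 for Fat4 and 9451 and 45435 for Fat3. Partners of the Fat and Dachsous pathway all passed, 4 of 4: the scaffold Mpdz was the highest (182 and 146) and Fjx1, a relative of the fly kinase that modifies Fat and Dachsous, the lowest (10.2 and 6.34).

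Celsr genes were all detected, 3 of 3. Celsr1, known from neural tube closure, stood at 11.1 and 5.65 RPKM. Celsr2 stood at 36.2 and 11.4 and Celsr3 at 5.15 and 3.13 (joined with a microRNA gene), both known from axon and dendrite growth. Celsr2 exceeded Celsr3 by 2.09 ± 0.71 and Celsr1 was below Celsr2 by a difference of -1.26 ± 0.51, both beyond the spread with the values as deposited. The second call was lost in replicate 2 alone (-0.90) and when the same length was used for both replicates (-0.92), as described below for Celsr2. The 11 planar polarity partners all passed, from the receptor Fzd3 (136 and 106) to the adaptor Prickle2 (9.69 and 6.32).

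Desmosomal cadherins anchor intermediate filaments in epithelia and heart. Dsc2 stood at 10.8 and 6.78 RPKM in a locus of its own. The locus of Dsg2, Ttr and Gm16090 stood at 129 and 34.9 from 1305 and 2551 reads, and no level of Dsg2 can be given. The difference between that locus and Dsc2, 2.83 ± 0.89, therefore compares Dsc2 with a mixture. Of the desmosome plaque genes, 5 of 6 passed, with Pkp4 highest (98.1 and 88.3) and Pkp1 lowest and not passing (0.245 and 0.190). Pkp4 is known from adherens junctions as well as desmosomes.

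By class, type II cadherins held 21.9% and 30.02% of the RPKM summed over the 43 loci, Fat and Dachsous genes 24.1% and 24.4%, and type I cadherins 16.4% and 17.3%. Delta-2 protocadherins held 12.3% and 13.5%, delta-1 protocadherins 6.28% and 5.62%, and Celsr genes 4.74% and 2.44%. The desmosomal pair held 12.6% and 5.04%, mostly through the locus shared with Ttr. The other cadherins held 0.929% and 0.910%, and Pcdh12 with Pcdh20 0.782% and 0.767%. The shares of the type II and desmosomal classes differed most between replicates.

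Between replicates, most of the 43 genes followed the shift that all loci showed. The median log2 ratio of replicate 2 to replicate 1 was -0.38 over all loci of at least 1 RPKM on average and -0.37 over the 39 of the 43 genes at that level, so ratios are given below relative to the -0.38. The 39 genes also varied less among themselves (SD 0.42) than all such loci (SD 0.69), a description with no test. As deposited, 40 of the 43 genes were lower in replicate 2. The share of all loci lower as deposited is not given here, so the 40 cannot be set apart from the shift. After centring, 19 were lower and 24 higher. Of the 39, 18 (46.2%) were lower after centring, where centring sets the share of all such loci to 50%. The 3 genes higher as deposited were Cdh11, Cdh13 and Cdh9. For Cdh13 the sign depended on the length behind its RPKM. Its log2 ratio before centring went from 0.16 to -0.04 with 1 length for both replicates. A difference of at least 2-fold towards lower values in replicate 2 was found for 3 of the 39 (7.69%), where 8.74% of loci of that level had one. These were the Dsg2 locus, Celsr2 and Pcdh1, the last at -1.001 before centring and so at the edge. None was 2-fold higher, where 3.03% of loci were. After centring, 2 stayed 2-fold lower, the Dsg2 locus (-1.47) and Celsr2 (-1.20), against 3.15% of loci. With the length behind the RPKM held the same for both replicates, the 2 were the Dsg2 locus and Pcdh1, where 8.31% of loci were 2-fold lower.

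**Figure D3:**
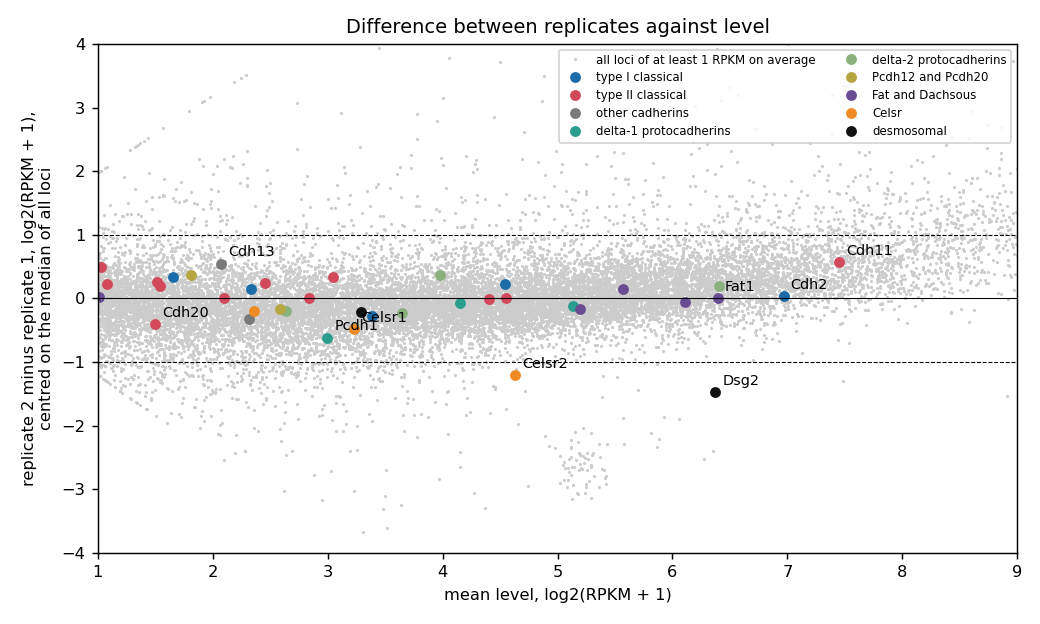
Log2(RPKM + 1) in replicate 2 minus replicate 1, centred on the median of all loci of at least 1 RPKM on average (vertical), against mean level (horizontal, log2(RPKM + 1)); grey points are all such loci within the axes, coloured points the cadherin superfamily genes, and dashed lines mark 2-fold. The 39 genes lie in the body of the grey cloud, with Celsr2 at -1.20 and the Dsg2 locus at -1.47 below the lower line.

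Liver products did not share 1 direction between the replicates. Beside the 129 and 34.9 RPKM of the Dsg2 locus, Afp, a fetal serum protein of liver and yolk sac, was at 196 and 82.0, and albumin (Alb) at 13.8 and 17.7. The centred log2 ratios of the Dsg2 locus, Afp and Alb were -1.47, -0.86 and 0.72. Dsc2, the other desmosomal cadherin, had -0.21. The part of liver and yolk sac RNA in the value of the Dsg2 locus was not tested. Trophoblast and decidual sums also differed between the replicates, as given above. Among the primitive blood markers, the globin Hbb-y stood at 1746 and 6474 RPKM (centred log2 ratio 2.27), while Alas2 at 131 and 60.3 (-0.73) and Gata1 at 14.8 and 5.54 (-0.89) went the other way. The part of these markers' tissues in the differences of the cadherin genes was not tested.

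The difference in Celsr2 depended on the length behind its RPKM. For single-transcript loci, the reads per RPKM in replicate 2 were 5.68 times those in replicate 1, but for Celsr2, which has 9 annotated transcripts in the files, the ratio was 9.27. The lengths used for that gene thus differed between the libraries. With the length implied by replicate 2 used for both, Celsr2 stood at 22.2 and 11.4 RPKM, its difference between replicates went from 3.17-fold to 1.94-fold, and its centred log2 ratio from -1.20 to -0.50. Celsr1, whose reads per RPKM had the common ratio, was at -0.48 and -0.46, so both genes were lower in replicate 2 by a like amount. As CPM, which divides counts by the library's summed count, Celsr2 was 2.19-fold higher in replicate 1 (exact 95% interval 2.09 to 2.30) and Celsr1 2.22-fold (2.09 to 2.36). Such intervals cover counting error only. Celsr3 had a centred ratio of -0.19. The 11 planar polarity partners did not share 1 direction, with centred ratios from -0.72 (Vangl1) to 0.26 (Dvl1). Dvl1, Dvl2, Ptk7 and Fzd3 were higher in replicate 2 after centring and the others lower.

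Of the 26 genes with over 200 reads in replicate 1, 11 had reads per RPKM over 1% away from the common ratio, where 57.1% of such loci did. The ratio was 7.22 for the Dsg2 locus, 6.26 for Dchs1, 6.25 for Pcdh12 and 4.47 for Cdh8. With fewer reads, Cdh23 (17 transcripts) had 2.97, and its RPKM in replicate 1 would be 1.49 in place of 0.779 with the length of replicate 2. For Cdh8 the centred ratio went from 0.33 to 0.04, and for the Dsg2 locus from -1.47 to -1.11. Pcdh1 kept its value (-0.62 with both).

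**Figure D4:**
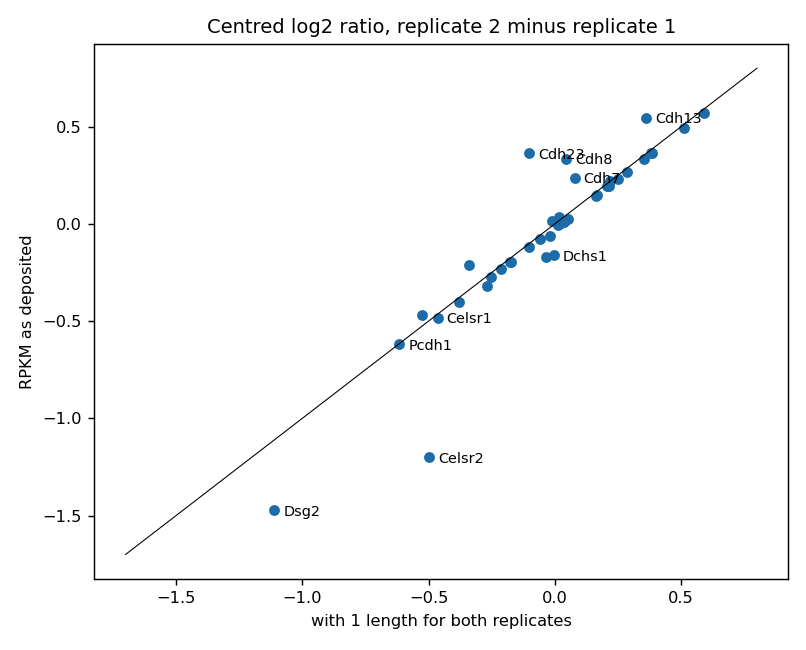
Centred log2 ratio between replicates for the 40 genes with at least 30 reads in replicate 1, from RPKM as deposited (vertical) and with the length implied by replicate 2 used for both replicates (horizontal); the line marks equal values. Most genes lie on the line, while Celsr2 moves from -1.20 to -0.50, the Dsg2 locus from -1.47 to -1.11 and Cdh23 from 0.36 to -0.10.

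Cdh11 lay on the other side of the shift. It had a centred log2 ratio of 0.57 and a single transcript, so its length was the same in both libraries, and its reads gave 0.989 times the CPM in replicate 1 compared with replicate 2 (exact 95% interval 0.963 to 1.02). Cdh2 had 1.48 (1.43 to 1.52), Pcdh18 1.29 (1.25 to 1.33) and Fat1 1.46 (1.44 to 1.49). Cdh11 and Cdh2, of similar level, thus had intervals of counting error that do not overlap. The SD of the log2 ratio between replicates was 1.08 over loci of Cdh11's level, so the ratio of Cdh11 lies within the ordinary spread of such loci. Over loci of Cdh2's level the SD was at most 0.53, and Cdh2 had a centred log2 ratio of 0.03. At the low end, Cdh17 had 4.01 with an interval from 1.03 to 13.9, which shows how little 5 and 8 reads can tell.

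Transcripts of proteins that work with classical cadherins ranged widely. The shares of loci that passed 1 RPKM in both replicates, to be read beside each list count here and above, were 49.4% of all loci and 65.1% of protein-coding loci. All 8 catenin and actin-link genes passed: Ctnnb1, beta-catenin, was the highest (799 and 1195 RPKM), and Ctnna3, the alpha-catenin known from heart and testis, the lowest (2.42 and 2.19). Alpha-catenin Ctnna1 stood at 154 and 164, above the neural alpha-catenin Ctnna2 (35.4 and 36.3), and p120-catenin Ctnnd1 at 99.4 and 71.3, above Ctnnd2 (8.77 and 5.38). Jup, the plakoglobin of desmosomes and adherens junctions, stood at 27.7 and 16.1. Nectins and afadin, which start cell contacts beside cadherins, passed at 5 of 5 loci, from Afdn (225 and 225, joined) to Nectin4 (1.89 and 1.26). Genes that cut or turn over cadherins passed at 5 of 5, from the protease Adam10 (97.3 and 56.8) to Psen2 (6.59 and 5.64).

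Transcription factors known to repress Cdh1 passed at 6 of 6 loci. Zeb1 was the highest (214 and 155 RPKM) and Snai1 the lowest (7.78 and 2.67), with Zeb2 at 156 and 147 in a joined locus. Cdh1 itself was at 11.8 and 7.12, so 5 of the 6 stood above it in both replicates. Levels in RNA of a whole embryo do not show whether a repressor and Cdh1 were in the same cells. Over the 9 lists of partners, regulators and other superfamily genes, 54 of 68 loci passed, beside 65.1% of protein-coding loci. These counts include the list of superfamily genes outside the chosen ones, where only 7 of 18 loci passed. As deposited, 3 of the 68 loci (Vangl1, Myo7a and Snai1) were at least 2-fold lower in replicate 2 and none 2-fold higher. Among all loci of at least 1 RPKM on average, 8.74% were 2-fold lower and 3.03% 2-fold higher.

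**Figure D5:**
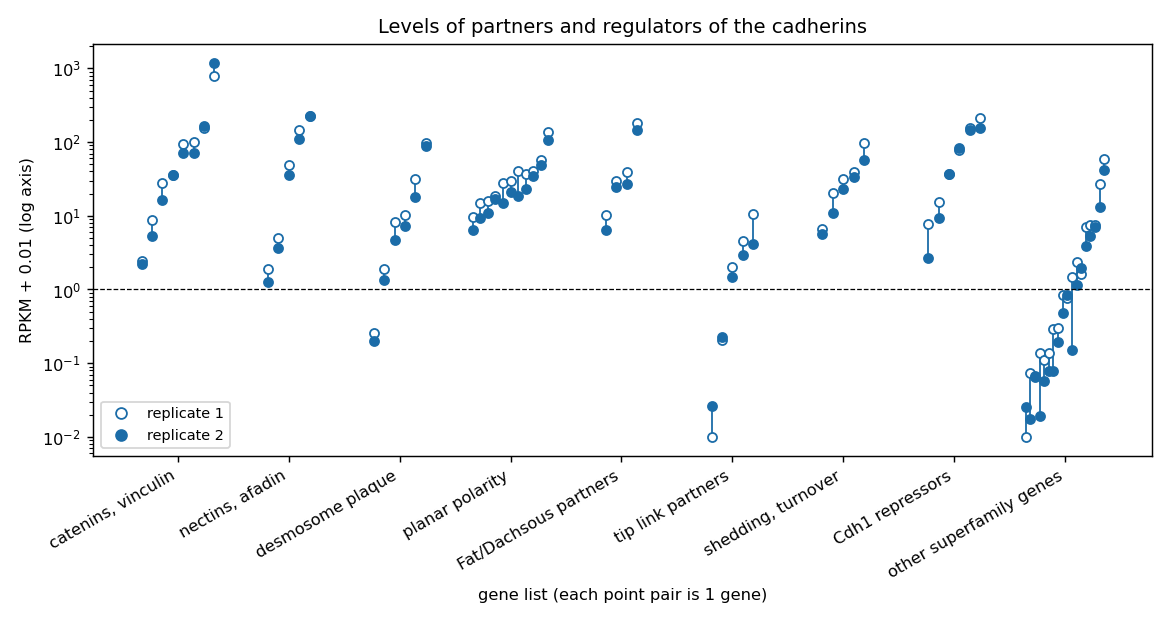
RPKM + 0.01 (log axis) of the genes in 9 lists of partners, regulators and other superfamily genes; open circles are replicate 1, filled circles replicate 2, and the dashed line marks 1 RPKM. Beta-catenin is the highest point at 799 and 1195 RPKM, and the tip link and other superfamily lists hold most of the genes under the line.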

How the data were processed

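Total RNA of 2 whole-embryo replicates was sequenced on Illumina libraries, per the labels' protocols. TopHat and build mm9 are named without a version, per the submitters' processing notes; no source used here gives the counter, the filters or the use of strand. The authors deposited RPKM values and whole-number counts per locus, per the file headers. Rows with the same identifiers were summed (34676 rows, 34624 loci, of which 2473 joined). Genes were matched by Ensembl identifier. Gene types and gene order came from GENCODE M21 on another build. RPKM was the main unit, on the log2(RPKM + 1) scale (pseudocount 1) for differences. Counts gave depth, CPM and exact (Clopper-Pearson) 95% intervals of ratios, which cover counting error only. Pair limits used 2 SD of the log2 ratio between replicates in 20 groups of loci by level. With 1 group there was no count test, and nothing says that the replicates are separate litters, so their spread may be partly technical. The members and lists were chosen with earlier results of these data known. Named were all 43 genes and, in each partner list, the highest, the lowest and those under 1 RPKM (where there are 5 or fewer); other partners and tissue markers were named after their values were seen. Protein sequences, planned as a description, were not used here. Code was tested on simulated data. Python 3.11.15, pandas 2.3.3 and scipy 1.17.1 were used.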

Additional observations from a re-analysis of the deposited data

How the results depend on the processing

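The number of genes detected, 36, ranged from 28 (minimum of 3 RPKM) to 42 (10 reads in both replicates) over the alternatives that kept all 43, with 37 and 38 in 1 replicate alone. Of the 34 in loci of their own, 27 were detected. Shares of all loci are given here only for 1 RPKM in both replicates. The counts at other settings thus cannot be set against a background. Leaving out joined loci moved 8 of the 9 class shares by more than their SD between replicates, the exception being Celsr (3.59% as reported, 4.64% without joined loci, 2.44% and 4.74% in 1 replicate alone): Fat and Dachsous genes went to 7.07%, the desmosomal class to 1.29%, type II to 35.9%, type I to 23.5%, delta-2 to 17.2%, delta-1 to 8.56%, Pcdh12 with Pcdh20 to 1.11% and other cadherins to 0.738% (means of both replicates). With 1 length for both replicates, a choice made after seeing the data, the other cadherins had 0.989% and Pcdh12 with Pcdh20 0.762%. In CPM, 6 genes were 2-fold lower in replicate 2 in place of 3, a count without a share of all loci in CPM beside it. The median log2 ratio of the 43 genes, -0.37, was also lower in CPM, at -0.57. It became 0.012 when the RPKM ratios were centred on all loci. Of the 31 pairs, 23 kept their call and sign in all 7 alternatives and 8 did not; Cdh12 minus Cdh18 changed sign between replicates taken alone (-0.061 and 0.0085). No paired analysis was possible because the series holds 1 group. Depth limits Cdh17, Cdh16 and Cdh26 most, with 5 to 26 reads in replicate 1.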

Other observations

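Of 18 measured loci of the cadherin superfamily outside the 43 genes and the clustered protocadherins, 7 reached 1 RPKM in both replicates, where 49.4% of all loci and 65.1% of protein-coding loci did. The calsyntenin Clstn1 was the highest (58.2 and 42.2 RPKM), ahead of Cdh24, a type II cadherin in a joined locus (26.9 and 13.3). Pcdh11x, a delta-1 protocadherin, stood at 7.60 and 7.03, above Pcdh1 in replicate 2 alone. The cadherin-like receptor tyrosine kinase Ret stood at 2.32 and 1.14. Dsg1a was the lowest (0 and 0.0152), and as it has near-identical copies, Dsg1b and Dsg1c, the split of reads among them is uncertain. The epidermal genes Dsc1, Dsg3 and Dsg4 lay between 0.0470 and 0.127 RPKM, and Dsc3 stood at 0.764 and 0.820.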
